A study of Mus musculus with 18 samples.

Results

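The genes described here were nearly silent without p53 and present in every library after p53 restoration. A gene was taken when its highest level in the 9 Control libraries was below 2 TPM, and its lowest level in the 9 Restored libraries was at least 1 TPM and at least 2 times that highest Control level. TPM (transcripts scaled to a common total) is a per-length measure that sums to the same total in each library. Of 25239 genes in the deposited table, 43 met this rule. Leaders of the p53 response such as Cdkn1a and Mdm2 (11 symbols in all) were left out by name beforehand, and 0 of these 11 would have met the rule. The genes were thus chosen by their Control and Restored TPM, and that contrast is given as a description without a test.

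The libraries came from 3 mouse small cell lung cancer lines, 4711-1, 4711-18 and 4716-11, of the kind that dies by necrosis after p53 restoration (Type D). The lines were derived from tumors of Rb1 fl/fl; Trp53 XTR/XTR; Rbl2 fl/fl; Rosa26 FlpO-ER mice infected with an adenovirus carrying Cre under the CMV promoter, so Rb1 and Rbl2 were deleted in all 18 libraries and Trp53 was trapped until 4-OHT was given. Each line carried a CRISPR vector with 1 of 3 sgRNAs, either sgBgal (a control directed at β-galactosidase), sgPpia#3.2 or sgPpia#4.1, which target Ppia, the gene for cyclophilin A. Cells were given vehicle (Control, Trp53 trapped) or 4-OHT, which lets FlpO-ER remove the trap (Restored), for 72 h. This gave 6 groups of 3 libraries, 1 from each line. Each line comes from a single tumor-derived culture, 4711-1 and 4711-18 share the first part of their name, and the 3 libraries of a line are sgRNA derivatives of it, so p-values between lines measure the spread among those derivatives. All 9 Restored libraries also received 4-OHT, so the agent and p53 cannot be told apart.

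p53 is a transcription factor that binds DNA as a tetramer, on sites built of paired copies of a short palindromic half-site, and raises genes for growth arrest, cell death, repair and metabolism. Many of its direct targets already have a basal level in cells without active p53. Others are nearly off at rest and become detectable once p53 is active.

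Trp53 itself was at 5.45 to 8.41 TPM in the Control libraries and at 181 to 236 TPM in the Restored libraries. With sgBgal, Ppia was at 1551 to 2849 TPM. The levels of Ppia were 658 to 1233 TPM in cells carrying sgPpia#3.2 and 1191 to 1952 TPM in those carrying sgPpia#4.1. Several defining neuroendocrine markers of small cell lung cancer were at or near 0 in every library, with Chga at most 0.156 TPM, Dll3 at most 0.185 TPM and Calca at most 0.0181 TPM. Syp stood at 3.03 to 7.12 TPM and Ncam1 at 6.90 to 29.7 TPM. Among 3 leukocyte markers, Ptprc and Cd3e did not pass 0.159 TPM in any library, and Cd68 was at 2.0 to 7.13 TPM in Control and 21.3 to 39.8 TPM in Restored libraries. Their part in the levels below was not tested. The Control library of 4711-18 with sgPpia#3.2 had 369 TPM of Cdkn1a, against 99.4 to 171 TPM in the other 8, and held the highest Control value of 9 of the 43 genes. Without it the rule would take 46 genes. In bulk RNA, more cells expressing a gene and more RNA per cell cannot be told apart.

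The median of the 43 genes was 0.253 to 0.350 TPM in the Control libraries and 5.05 to 7.67 TPM in the Restored libraries. The ratio of the Restored to the Control median ranged from 5.65 for Gm10638 to 132 for 1700007K13Rik, with a median of 29.5 over the 42 genes whose Control median was above 0. The lowest Restored level exceeded the highest Control level by 2.02 to 59.3 times, with a median of 6.12. In Restored libraries 16 genes had a median above 10 TPM, 26 lay between 2 and 10 TPM, and Dclk2 was lowest at 1.78 TPM. Whole read numbers could be recovered from the deposited TPM. Summed over 9 libraries, a gene had a median of 192 reads in Control and 6291 reads in Restored cells, so the Control levels rest on few reads. At least 1 Control library was at 0 for 7 of the genes. All 43 passed the filter used in the tests below (1 TPM in at least 3 libraries), 36 of them only through their Restored levels and 7 in Control libraries alone.

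**Figure D1:**
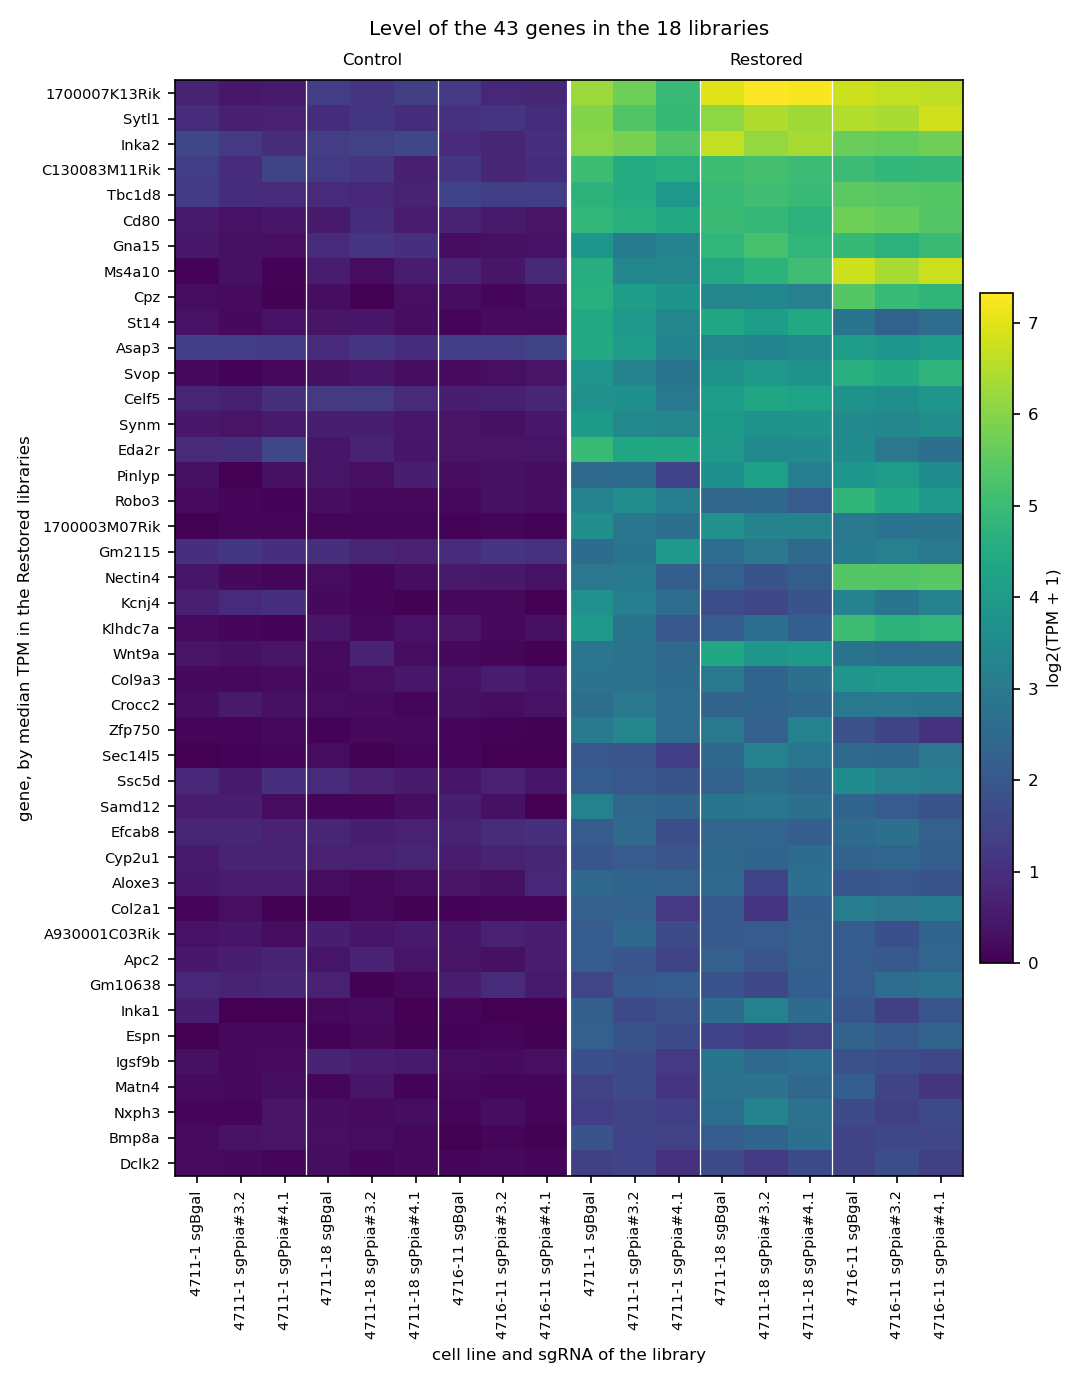
Level of each of the 43 genes (rows, ordered by median TPM in the Restored libraries) in the 18 libraries (columns, Control left and Restored right, each ordered by cell line and sgRNA), as log2(TPM + 1) in color. The median of the 43 genes sits at 0.253 to 0.350 TPM in the 9 Control columns and at 5.05 to 7.67 TPM in the 9 Restored columns, and 1700007K13Rik, Sytl1 and Inka2 head the order.

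The highest level was that of 1700007K13Rik, a RIKEN cDNA locus annotated as protein coding. It was at 0.396, 0.747 and 1.61 TPM (lowest, median and highest) in Control libraries and at 29.9, 98.8 and 159 TPM in Restored libraries. Sytl1, which encodes a synaptotagmin-like Rab27 effector of vesicle release, followed with 0.558, 0.941 and 1.27 TPM in Control and 29.0, 76.0 and 110 TPM in Restored libraries. Inka2, an inhibitor of the kinase PAK4, had 0.739, 1.36 and 1.97 TPM in Control and 39.6, 57.3 and 100.3 TPM in Restored libraries. These 3 genes together made up 39.0% of the summed Restored medians of the 43. Inka1, the second PAK4 inhibitor of this family, met the rule as well but at a far lower level. It was at 0 in 5 of 9 Control libraries, reached 0.533 TPM in the sgBgal Control library of 4711-1, and was at 1.60, 2.92 and 8.31 TPM in Restored libraries.

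The next genes by level were C130083M11Rik, a long noncoding RNA (Restored median 31.3 TPM), Tbc1d8, of a family of Rab GTPase-activating proteins (29.9 TPM), Cd80, the costimulatory ligand of CD28 and CTLA4 (28.2 TPM), Gna15, a G protein alpha subunit (27.1 TPM), Ms4a10, of the membrane-spanning 4-domain family (25.5 TPM), and Cpz, a secreted carboxypeptidase (16.3 TPM). Cpz was at 0.0274 to 0.221 TPM in Control libraries and at 8.08 to 40.7 TPM in Restored libraries. The widest gap between states was that of 1700003M07Rik, another long noncoding RNA. It did not pass 0.0907 TPM in any Control library and was at 5.38, 6.84 and 12.2 TPM in Restored libraries, 59.3 times higher at the closest approach. In all, 39 of the 43 genes are annotated as protein coding in RefSeq and 4 as long noncoding RNA (A930001C03Rik, 1700003M07Rik, C130083M11Rik and Gm10638).

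The 43 genes lie on 14 chromosomes, and a single pair of them, Celf5 and Gna15 on chromosome 10, lies within 100 kb, with 19597 bases between them (GENCODE M21, GRCm38). Exons of 12 genes overlap those of another gene. The strand setting of the counting is not given in the sources used here, so reads of opposite-strand partners may not have been told apart. The partner of Gm10638 is Siah1a, which shares 118 exonic bases with it and was itself at 28.4 TPM in Control and 60.6 TPM in Restored cells (medians). Tbc1d8 shares 420 bases with the ribosomal protein gene Rpl31, which was at 844 TPM in Control and 581 TPM in Restored cells. A930001C03Rik shares 950 bases with Syt12, at 6.17 and 10.6 TPM, and 170 bases with Rhod, at 24.1 and 43.2 TPM in the same order.

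RefSeq promoter windows of 300 bases (250 before the transcript start and 50 from it, GRCm38.p6) were held for 30 of the 43 genes. The exact p53 half-site consensus, which is purines, C, A or T bases, G and pyrimidines and reads the same on both strands, was found in 8 of these 30 genes (26.7%). The share was 14.8% of the 81 genes with a window in a comparison set, 8.18% of 10014 genes with enough expression to be tested, and 9.56% of all 27018 genes with a window. A gene counted when any of its windows held a match, and genes could have several. There were 43 windows for the 30 genes, 113 for the 81, 12691 for the 10014 and 32841 for the 27018. The comparison set holds 100 other genes that met the same ratio and Restored level but had a Control maximum of 2 TPM or more. Of the 11 symbols left out by name, 8 also met these limits and are not in the set. A pair of exact half-sites with at most 13 bases between them was found in 0 of the 30 genes and in 0.074% of all genes. With up to 3 mismatches allowed and the C and G of both cores kept, a search added after the data were seen, a pair was present in 11 of 30 genes (36.7%), in 24.7% of the comparison set, in 18.0% of tested genes and in 17.4% of all genes.

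Of the 10 genes with the highest Restored levels, 4 had an exact half-site upstream of the start, and the surrounding bases are shown to let these sites be compared. The half-site is in capitals. Positions are those of its first base, with the transcript start at 0, and the stretches are given 5′ to 3′ on the strand of the gene. The site of 1700007K13Rik begins at -91 (chr2:28466376-28466445, minus strand), that of Sytl1 at -241 (chr4:133263289-133263337, minus strand), that of Inka2 at -81 (chr3:105705347-105705416, plus strand) and that of Cpz at -160 (chr5:35525747-35525816, minus strand). The stretch of Inka2 lies inside the annotated gene, which begins at 105704599, so the transcript start used there is not the first of the gene.
1700007K13Rik: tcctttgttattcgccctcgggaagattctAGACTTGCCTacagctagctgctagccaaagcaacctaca
Sytl1: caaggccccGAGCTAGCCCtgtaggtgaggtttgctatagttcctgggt
Inka2: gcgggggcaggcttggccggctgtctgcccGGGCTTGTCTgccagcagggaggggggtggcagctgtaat
Cpz: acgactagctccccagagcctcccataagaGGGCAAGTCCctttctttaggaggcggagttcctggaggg

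1700007K13Rik has a further exact half-site at position 30, behind the start. The other 4 genes with an exact half-site were Celf5 (at -182), Crocc2 (at -86), Klhdc7a (at -230) and Sec14l5 (at -128). The core CATG, which the half-site of Celf5 and that of Sec14l5 contain, was present in 46.7% of the 30 genes, 63.0% of the comparison set, 53.7% of tested genes and 64.8% of all genes. The TATA box letters TATAAA, read on both strands, were present in 13.3% of the 30, 13.6% of the comparison set, 8.93% of tested genes and 15.7% of all. The median ratio of observed to expected CpG was 0.536 in the windows of these 30 genes, 0.674 in the comparison set, 0.750 in tested genes and 0.384 over all windows. A match of letters is a description of the window and not of binding.

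Genes called in neither comparison of lines described below numbered 22. Among them Synm, the intermediate filament protein synemin, was at 0.253 to 0.528 TPM in Control and at 9.06, 11.2 and 15.0 TPM (lowest, median and highest) in Restored libraries. Espn, an actin-bundling protein, was at 0 to 0.136 TPM in Control and at 1.46, 2.77 and 4.02 TPM in Restored libraries. Asap3, an Arf GTPase-activating protein, and Celf5, an RNA-binding regulator of splicing, began from higher Control medians, 1.52 and 0.740 TPM, and had Restored medians of 13.6 and 12.6 TPM. Crocc2, of the rootletin family of ciliary root proteins, had a narrow Restored band of 4.02 to 6.86 TPM. Aloxe3, an epidermal lipoxygenase, had Restored levels of 1.75 to 5.34 TPM and Apc2, a relative of the Wnt pathway regulator Apc, of 1.83 to 4.21 TPM. Gm2115 was at 14.5 TPM in 4711-1 with sgPpia#4.1 and at 4.81 to 8.09 TPM in the other 8 Restored libraries, the single library in which it stood apart. Samd12 and Efcab8 had Restored medians of 4.31 and 4.20 TPM, and Bmp8a, a ligand of the BMP family, one of 2.01 TPM.

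By function the genes were mixed. A list of known p53 targets held 4 of the 43 (Cd80, Eda2r, Inka2 and Wnt9a) and 20 of the 100 comparison genes. The 8 leaders of the p53 response kept out of the comparison set by name are not counted in it. A list of receptor and adhesion genes held 6 of the 43 (Cd80, Col9a3, Eda2r, Matn4, Nectin4 and Robo3) and 1 of the 100 comparison genes. Secreted ligands were Wnt9a, Bmp8a and Nxph3, a ligand of neurexins, with 0 such genes in the comparison set. The channel and transporter list held Kcnj4, an inward rectifier potassium channel, and Svop, a synaptic vesicle protein, and 5 of the 100 comparison genes. The epidermal list held St14, the membrane protease matriptase, and Zfp750, a transcription factor of epidermal differentiation, and 0 of the comparison genes. The metabolic enzyme list held 0 of the 43 and 5 of the comparison genes. Module 1 is a list the study drew from another RNA-sequencing experiment that included these lines, so its direction is not independent evidence here. It held 24 of the 43 (55.8%, and 9.64% of its own 249 genes in the table) and 64 of the 100 comparison genes. Module 5 held 4 of the 43 and 14 of the comparison genes, Module 6 held 3 and 7, and 12 were in no module. In the table, the receptor and adhesion list had 25 genes, the ligand list 34 and the channel and transporter list 18. The epidermal list had 23 and the metabolic enzyme list 15. Both the 43 genes and all these lists, those of function included, were chosen with results of these data known. The counts beside the comparison set therefore describe the lists, and no shared function of the 43 genes is read from them.

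Among the receptors, Eda2r, the ectodysplasin A2 receptor of the TNF receptor family, stood at 0.30 to 1.98 TPM in Control and 5.5 to 29.4 TPM in Restored libraries. Its highest Control value, in 4711-1 with sgPpia#4.1, put it just inside the Control limit of 2 TPM, with Inka2 (1.97 TPM) and C130083M11Rik (1.83 TPM). The nearest genes outside were 9230114K14Rik (2.22 TPM), Ddit4l (2.23 TPM) and Tctn1 (2.73 TPM). At the Restored limit, Zfp750 (1.04 TPM), Dclk2 (1.07 TPM) and Matn4 (1.14 TPM) were just inside, and Them5 (0.942 TPM), Armh1 (0.924 TPM) and Notch3 (0.877 TPM) just outside. At the ratio limit, Kcnj4 (2.02), Igsf9b (2.13) and Aloxe3 (2.21) were inside, and 2900052L18Rik (1.98), Cysrt1 (1.89) and Prdm8 (1.79) outside.

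After p53 restoration the larger part of the spread of these genes lay between cell lines. For each gene the squared spread of log2(TPM + 1) over the 9 Restored libraries was divided into parts. The median part between lines was 80.7% for the 43 genes, 72.6% for the comparison set and 74.8% for the 12828 genes tested, and the part between sgRNAs was 6.52%, 11.0% and 8.72%. The total spread was wider, with a median SD of 0.565 for the 43 genes against 0.303 and 0.317. The widest were Nectin4 (SD 1.54), Ms4a10 (1.32) and Klhdc7a (1.26), and the narrowest C130083M11Rik (0.214), Dclk2 (0.226) and Cyp2u1 (0.227), a fatty acid hydroxylase. The highest mean was in 4716-11 for 19 genes, in 4711-18 for 17 and in 4711-1 for 7. The summed level of the 43 genes was 347 to 599 TPM in 4711-1, 678 to 710 TPM in 4711-18 and 760 to 862 TPM in 4716-11, without overlap between the lines.

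The first comparison of lines asked whether Restored levels differed between 4711-18 and 4711-1. The fit was limma on log2(TPM + 1) with 1 mean for each line and state, and a gene was called at an adjusted p under 0.05 and a log2 difference of at least 1. Of the 43 genes 9 were called (8 higher and 1 lower in 4711-18), beside 10.3% of all genes tested and 3 of the 100 comparison genes. Over all genes the median difference was 0.13 and over the 43 genes 0.30. With rescaling by median-of-ratios, which brought the median of all genes to -0.0015, the split was 6 higher and 3 lower. The median over the 43 genes was then 0.19. Leaving out the libraries of 1 sgRNA at a time, without rescaling, gave medians over the 43 genes from 0.15 (without sgPpia#4.1) to 0.40 (without sgBgal).

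Of the 3 ligands, Wnt9a and Nxph3 were called higher in 4711-18, and Bmp8a (log2 difference 0.79, under the limit of 1) was not called. Wnt9a was at 19.4, 13.1 and 14.6 TPM in 4711-18 (sgBgal, sgPpia#3.2 and sgPpia#4.1 in this and the following sentences), at 6.31, 5.79 and 4.77 TPM in 4711-1, and at 6.0, 5.25 and 5.18 TPM in 4716-11. All 3 libraries of 4711-18 lay above the other 6, and the log2 difference from 4711-1 was 1.32 (SE 0.151, adjusted p = 4.85e-06). Nxph3 was at 5.27, 8.77 and 5.77 TPM in 4711-18 and at 1.57, 1.81 and 1.58 TPM in 4711-1 (log2 difference 1.49, SE 0.143, adjusted p = 7.04e-07). In 4716-11 it was at 2.18, 1.60 and 2.05 TPM, close to 4711-1. Matn4, an extracellular matrix adaptor protein, was at 5.91, 5.87 and 4.47 TPM in 4711-18 and at 1.66, 2.25 and 1.20 TPM in 4711-1 (log2 difference 1.26, SE 0.21, adjusted p = 0.000214).

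Gna15 was at 27.1, 35.4 and 27.1 TPM in 4711-18, at 13.4, 7.11 and 8.65 TPM in 4711-1 and at 28.8, 25.3 and 30.9 TPM in 4716-11, so that 4711-1 alone was low. The log2 difference of 4711-18 from 4711-1 was 1.56 (SE 0.168, adjusted p = 2.72e-06). In Control cells 4711-18 was highest, at 0.838, 1.15 and 1.00 TPM, against 0.385, 0.251 and 0.243 TPM in 4711-1 and 0.184, 0.245 and 0.285 TPM in 4716-11. 1700007K13Rik was at 124, 159 and 153 TPM in 4711-18 and at 73.6, 50.9 and 29.9 TPM in 4711-1 (log2 difference 1.56, SE 0.225, adjusted p = 5.48e-05). It too was higher in 4711-18 in Control cells, at 1.5, 1.19 and 1.61 TPM against 0.646, 0.396 and 0.444 TPM. The other genes called higher were Pinlyp, of the Ly6 and PLAUR domain family (log2 difference 1.47), Igsf9b, a synaptic adhesion protein (1.11), and Sec14l5, of the SEC14-like lipid-binding family (1.10).

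The channel gene Kcnj4 was lower in 4711-18. It was at 2.35, 1.95 and 2.66 TPM there, at 12.1, 8.01 and 5.17 TPM in 4711-1 and at 8.58, 6.21 and 8.42 TPM in 4716-11. The log2 difference of 4711-18 from 4711-1 was -1.44 (SE 0.201, adjusted p = 3.87e-05), and the 3 libraries of 4711-18 lay below the other 6. In Control cells it was highest in 4711-1, at 0.569, 0.871 and 0.966 TPM, against 0.0152 to 0.149 TPM in the 6 libraries of the other lines.

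**Figure D2:**
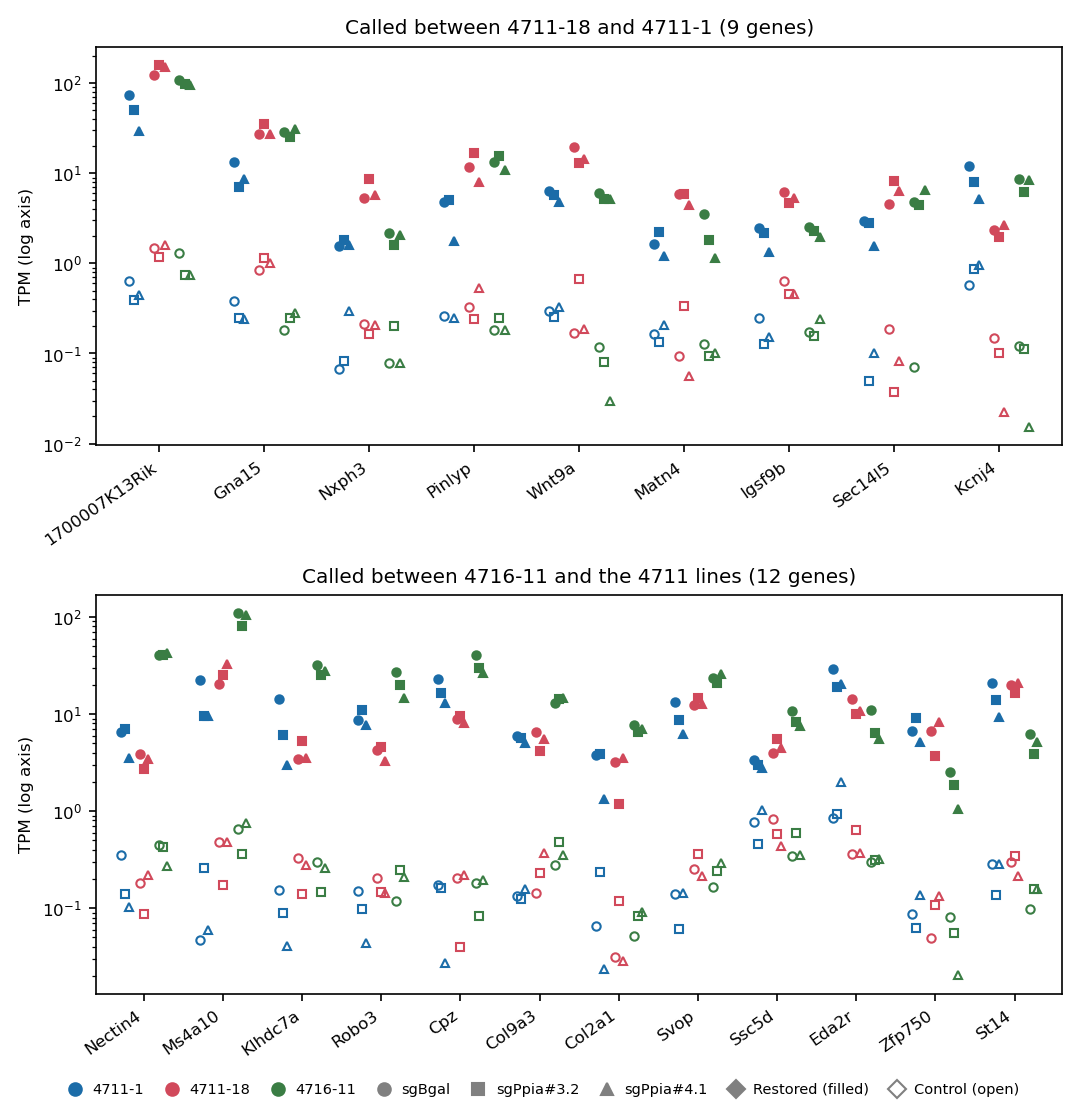
TPM on a log axis of the genes called between lines after p53 restoration, with 4711-18 against 4711-1 above (9 genes) and 4716-11 against the 4711 lines below (12 genes). Color gives the line, shape the sgRNA, filled symbols Restored and open symbols Control libraries, and Control values of 0 are not drawn. For Nectin4 the filled symbols of 4716-11 lie at 40.2 to 42.9 TPM and those of the other lines at 2.74 to 6.95 TPM.

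The second comparison set 4716-11 against the mean of the 4711 lines. Of the 43 genes 12 were called (9 higher and 3 lower in 4716-11), beside 7.18% of all genes tested and 4 of the 100 comparison genes. The median difference was -0.13 over all genes and 0.27 over the 43 genes. After median-of-ratios rescaling these were -0.01 and 0.38, and 10 of the 12 called genes were higher. Without rescaling, leaving out 1 sgRNA at a time gave medians over the 43 genes from 0.15 (without sgPpia#4.1) to 0.29 (without sgBgal). No gene was called in both comparisons (0 of 43), so 21 genes were called in either and 22 in neither. This split depends on the limit of 1, since Robo3 was at -0.995 in the first comparison (limma adjusted p = 0.000285). A gene called in neither can also differ between lines, as Cd80 did in the second (0.80, limma adjusted p = 0.000127).

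The adhesion receptor Nectin4 differed most. It was at 40.9, 40.2 and 42.9 TPM in 4716-11, at 6.5, 6.95 and 3.52 TPM in 4711-1 and at 3.87, 2.74 and 3.48 TPM in 4711-18. The log2 difference was 3.0 (SE 0.148, adjusted p = 4.55e-10), and 4716-11 stood apart from the other 6 libraries. In Control cells it was at 0.448, 0.428 and 0.272 TPM in 4716-11 and at 0.0869 to 0.350 TPM in the others, so the groups overlapped there. Ms4a10 was at 109, 81.6 and 106 TPM in 4716-11, at 22.7, 9.52 and 9.45 TPM in 4711-1 and at 20.2, 25.5 and 32.6 TPM in 4711-18 (log2 difference 2.37, SE 0.223, adjusted p = 7.09e-07). Klhdc7a, a kelch domain gene, was at 32, 25.5 and 27.6 TPM in 4716-11 and at 2.95 to 14.2 TPM in the other 6 libraries (log2 difference 2.25, SE 0.269, adjusted p = 9.58e-06).

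The axon guidance receptor Robo3 was at 26.9, 20.1 and 14.6 TPM in 4716-11, at 8.69, 11.0 and 7.70 TPM in 4711-1 and at 4.30, 4.61 and 3.28 TPM in 4711-18, with no overlap between any of the lines. Its log2 difference was 1.56 (SE 0.149, adjusted p = 8.58e-07). Both cartilage collagens were higher in 4716-11. Col9a3 was at 13.1, 14.2 and 14.7 TPM there and at 4.11 to 6.61 TPM in the other lines (log2 difference 1.22, SE 0.11, adjusted p = 4.59e-07). Col2a1 was at 7.67, 6.47 and 7.08 TPM there and at 1.19 to 3.84 TPM in the other lines (log2 difference 1.15, SE 0.224, adjusted p = 0.000789). Cpz (1.30), Svop (1.04) and the scavenger receptor family gene Ssc5d (1.03) were the remaining genes called higher. Svop lost the call without sgPpia#4.1 (0.84) and Ssc5d without sgBgal (0.88).

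The genes called lower in 4716-11 were St14, Zfp750 and Eda2r, while Aloxe3 was not called (log2 difference -0.34). St14 was at 6.27, 3.88 and 5.10 TPM in 4716-11, at 20.8, 13.9 and 9.42 TPM in 4711-1 and at 19.8, 16.3 and 20.7 TPM in 4711-18 (log2 difference -1.52, SE 0.174, adjusted p = 6.05e-06). Zfp750 was at 2.53, 1.84 and 1.04 TPM in 4716-11 and at 3.73 to 9.10 TPM in the other lines (log2 difference -1.43, SE 0.198, adjusted p = 4.08e-05). For both genes 4716-11 did not overlap the other lines. Eda2r was at 10.9, 6.42 and 5.5 TPM in 4716-11, at 14.3, 10.03 and 10.6 TPM in 4711-18 and at 29.4, 19.2 and 20.2 TPM in 4711-1 (log2 difference -1.05, SE 0.196, adjusted p = 0.000601). There 4716-11 overlapped 4711-18, and the call was lost with median-of-ratios rescaling, in the test on reads and without sgPpia#4.1, with values from -1.14 to -0.92 over the alternatives.

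**Figure D3:**
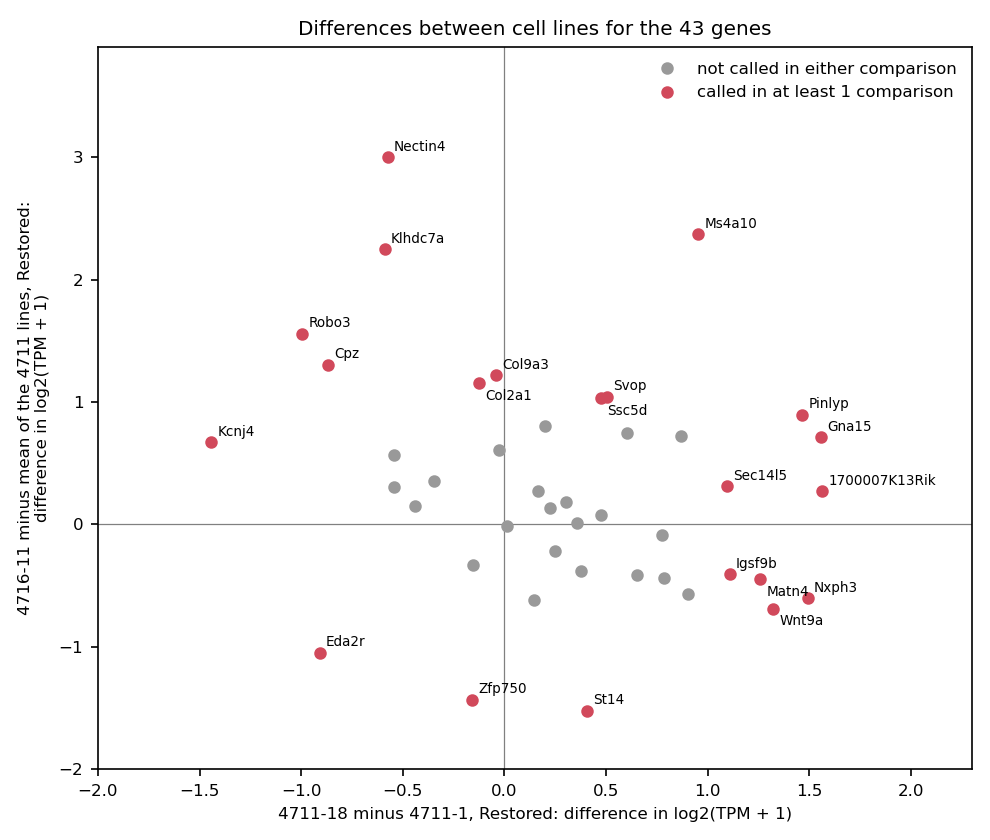
Each of the 43 genes by its Restored log2 difference between 4711-18 and 4711-1 (x axis) and between 4716-11 and the mean of the 4711 lines (y axis), with the 21 genes called in either comparison in red and named. Nectin4 (3.0), Ms4a10 (2.37) and Klhdc7a (2.25) lie at the top and St14 (-1.52) at the bottom.

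The response itself, Restored minus Control on the log2(TPM + 1) scale, was also compared between lines, a comparison added after the data were seen. It was called at an adjusted p under 0.05 for 5 of the 43 genes between 4711-18 and 4711-1, beside 2.1% of all genes tested, and for 13 of the 43 between 4716-11 and the 4711 lines, beside 1.4% of all genes tested. Of the 43 genes 36 passed the filter only through their Restored levels, and the rule used both states, so nothing is read from these counts against the shares of all genes. The counts were 1 and 4 with a pseudocount of 0.1 and 0 and 1 with voom on the recovered reads, a scale closer to a ratio of levels. The gene called by voom was Ssc5d. Leaving out the libraries of 1 sgRNA at a time gave 0 to 2 and 2 to 5.

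The Ppia sgRNAs were compared with sgBgal within the Restored cells, with 3 lines in each group. With sgPpia#3.2, limma called 0 of the 43 genes, beside 0% of all genes tested. An unadjusted p under 0.05 was found for 1 of the 43 and for 154 of the 12828 genes tested. With sgPpia#4.1 limma called 0 of the 43 as well, again beside 0% of all genes tested. There 1 of the 43 and 68 of the 12828 had an unadjusted p under 0.05. Voom on the recovered reads called 0 for each sgRNA. The standard error of a gene's log2 difference had a median of 0.361 and ranged from 0.167 to 0.938, since the lines differed widely. This fit had no block for the cell line, so the spread between lines is part of these errors. The test of the response (Restored minus Control with a Ppia sgRNA, less the same with sgBgal) called 0 of the 43 for sgPpia#3.2 and 0 for sgPpia#4.1, beside 0% and 0% of all genes tested, and limma gave 0 of them an unadjusted p under 0.05 in either. Voom also called 0 in both tests, with 1 gene at an unadjusted p under 0.05 in each. The rule that chose the 43 genes required the rise in every Restored library, those with a Ppia sgRNA included. A gene that lost its rise with a Ppia sgRNA could therefore not be among them. For this reason the counts of called genes cannot show whether such an sgRNA removes a rise.

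The differences leaned downward without passing the test. With sgPpia#3.2, 33 of the 43 genes (76.7%) were below sgBgal, as were 66.2% of all genes tested and 70 of the 100 comparison genes. The median log2 difference was -0.17, beside -0.09 over all genes and -0.08 over the comparison set. With sgPpia#4.1, 35 of the 43 (81.4%) were below, as were 67.6% of all genes tested and 78 of the 100 comparison genes, and the medians were -0.26, -0.07 and -0.13. After median-of-ratios rescaling the medians over the 43 genes were -0.08 and -0.18, with 27 and 34 genes below. Those over all genes were then 0.0086 and 0.0045, and those over the comparison set 0.03 and -0.04, with 43 and 59 of its 100 genes below. The lean of sgPpia#4.1 came mainly from 4711-1. In that line 40 of the 43 genes were below sgBgal (median -0.58), against 29 in 4716-11 (median -0.09) and 21 in 4711-18 (median 0.0046), and without 4711-1 the median over the 43 genes was -0.03. In the same order of lines the comparison set had 86, 53 and 60 of 100 genes below, with medians of -0.36, -0.01 and -0.03. In the same 3 Restored libraries of 4711-1, Ppia was at 2060 TPM (sgBgal), 873 TPM (sgPpia#3.2) and 1678 TPM (sgPpia#4.1).

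**Figure D4:**
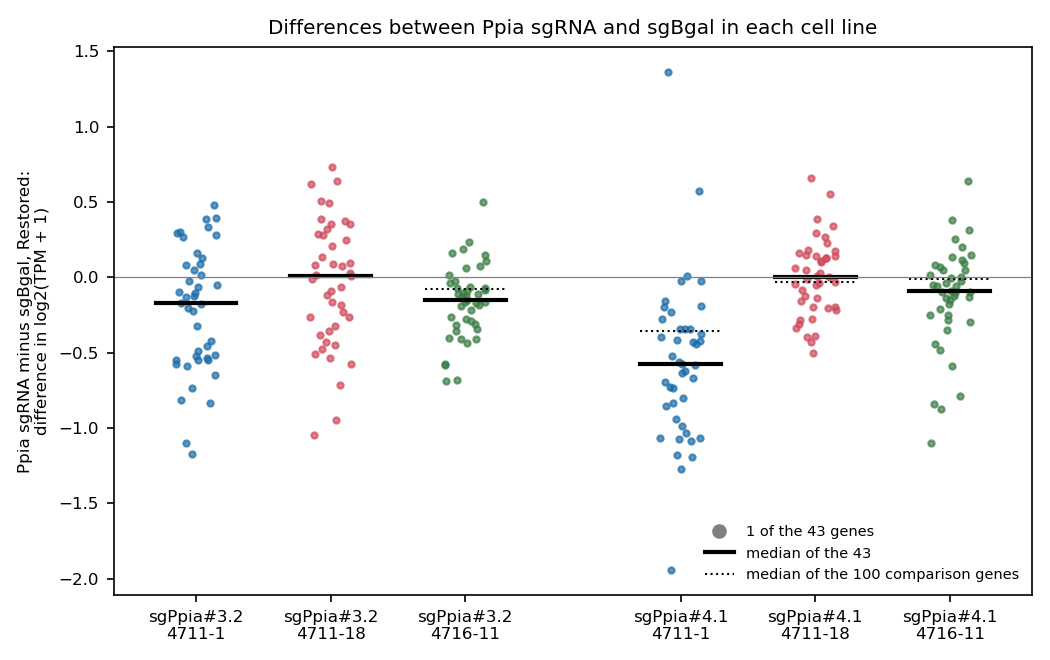
Difference in log2(TPM + 1) between a Ppia sgRNA and sgBgal in the Restored libraries of each line, with a point for each of the 43 genes, a thick bar at their median and a dotted bar at the median of the 100 comparison genes. The points of 4711-1 with sgPpia#4.1 lie lowest, with 40 of 43 below 0, and those of 4711-18 are centered near 0 for both sgRNAs.

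Genes below sgBgal in all 3 lines numbered 12 with sgPpia#3.2 and 15 with sgPpia#4.1, and those above in all 3 numbered 3 and 1. The shares below in all 3 were 27.9% and 34.9% of the 43 genes, 33.8% and 26.2% of all genes tested, and 36 and 32 of the 100 comparison genes, so they were near the background. Eda2r was among the largest of these for both sgRNAs. Its log2 difference was -0.58 with sgPpia#3.2 and -0.60 with sgPpia#4.1 (SE 0.474, adjusted p = 1 for each). That SE includes the spread between lines, since the fit had no block for the line. Within 4711-1, 4711-18 and 4716-11 the differences were -0.589, -0.476 and -0.683 with sgPpia#3.2. With sgPpia#4.1 they were -0.521, -0.398 and -0.875. In 4711-1 Eda2r was at 29.4 TPM with sgBgal against 19.2 and 20.2 TPM, and in 4716-11 it was at 10.9 TPM against 6.42 and 5.5 TPM. The long noncoding RNA 1700003M07Rik was the gene with an unadjusted p under 0.05 in both, with log2 differences of -0.45 and -0.50, and its limma adjusted p was 1 in each. It was at 11.2, 12.2 and 6.84 TPM with sgBgal in 4711-1, 4711-18 and 4716-11, at 6.35, 8.75 and 5.87 TPM with sgPpia#3.2, and at 5.38, 8.77 and 6.13 TPM with sgPpia#4.1. In each line the sgBgal library was the highest of the 3. The 3 largest differences of the same sign in all 3 lines were those of Pinlyp (-0.62), Eda2r and Matn4 (-0.57) for sgPpia#4.1, and those of Eda2r, St14 (-0.46) and 1700003M07Rik for sgPpia#3.2. Pinlyp, Matn4 and St14 had an unadjusted limma p above 0.05 there.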

How the data were processed

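RNA of 18 samples was sequenced, and conditions were taken from the sample labels. The authors deposited TPM for 25239 genes, 1 column per sample. Per the labels, reads were handled with bcl2fastq 2.17 and HISAT2, on genome builds given as mm10 and GRCm39. The study's methods name Kallisto or HISAT2 and do not say which was used here. The counter, annotation, strand setting and any filter are not given in the sources used here.

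Low TPM values are whole multiples of a step, and whole reads (within 0.02) were recovered for 17686 of 17869 genes above 0 in at least 6 samples (99.0%), at 33.0 to 58.8 M reads per sample. A divisor common to all samples could not be seen, so these are the smallest totals possible, and no counting interval was computed.

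Groups were compared in R 4.3.3 on log2(TPM + 1) by linear models with moderated variances from limma 3.58.1, which understates changes of low genes. Tests covered 12828 genes, each reaching 1 TPM in 3 samples or more, with Benjamini-Hochberg adjustment over all of them. Genes were called at an adjusted p under 0.05 and an absolute log2 difference of at least 1, and interactions at the adjusted p alone. The sgRNA contrasts used 1 mean for each of 6 groups, and the line contrasts 1 mean for each line and state. Same-line samples deviated together from their group means (mean correlation 0.729 over 45 pairs, against -0.361 over 90 pairs of different lines), so the lines, which the labels give, pair the samples. The study states no block, so the block was an alternative. Others were a pseudocount of 0.1, other filters, median-of-ratios rescaling, eBayes with trend and robust options, and leaving out each line or sgRNA. Voom on recovered reads, the interactions between lines, the rule without 1 library and the relaxed motif search were added after the data were seen.

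The 43 genes, the lists and the tests were chosen with earlier results of these data known. Genes were named if on a list, among the 10 highest or 10 best separated, called, nearest a threshold, widest or narrowest in spread, or, where none was called, among the 3 largest of 1 sign in all lines. Not all of them are printed, and not every marker gene examined is reported here. The overlapping partners of exons and the other 4 genes with a half-site were named after their values were seen. The steps were tested on simulated data, and tables and figures were made with Python 3.11.15 and matplotlib 3.10.9.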

Additional observations from a re-analysis of the deposited data

Results flagged for a closer look

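The genes below passed the limma test of a difference between lines in Restored minus Control on the log2(TPM + 1) scale, a comparison added after the data were seen. Each passed the filter only through its Restored levels, and on this scale differences in Restored level weigh more than those between low Control levels, so the values do not show that the fold response differed. Against 4711-1, the value of 4711-18 was larger for Nxph3 (1.43), Wnt9a (1.29), Matn4 (1.27) and Bmp8a (0.86), and smaller for Robo3 (-1.08). Against the mean of the 4711 lines, the value of 4716-11 was larger for Nectin4 (2.77), Klhdc7a (2.173), Ms4a10 (2.02), Robo3 (1.48), Cpz (1.28), Ssc5d (1.26), Gna15 (1.09), Kcnj4 (1.04), Col9a3 (1.02), Svop (0.99) and Cd80 (0.82). It was smaller for St14 (-1.38) and Zfp750 (-1.37).

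On the voom scale the same differences kept their sign. Of these genes, voom called 1, Ssc5d (1.92, adjusted p = 0.0423), and Nectin4 was the next (2.09, adjusted p = 0.0869). For Col9a3 the voom difference was 0.40 (adjusted p = 0.764) and for Ms4a10 1.02 (adjusted p = 0.662). Groups of 3 samples were not tested for outlying samples.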

How the results depend on the processing

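None of the 43 genes was called between a Ppia sgRNA and sgBgal (0), nor in the interactions with the sgRNA (0), under any alternative tried. The rule required the rise in every Restored library with a Ppia sgRNA, so these counts cannot show whether such an sgRNA removes a rise. With the cell line as replicate block the count stayed at 0 in all 4, with 3 and 4 genes at an unadjusted p under 0.05 in the sgPpia#3.2 and sgPpia#4.1 contrasts in place of 1 and 1. Of all 12828 genes tested, 1108 and 424 had such a p with the block, in place of 154 and 68. Leaving out each line gave 0 to 0 calls there. The median over the 43 genes ranged from -0.20 to -0.08 for sgPpia#3.2 and from -0.34 to -0.03 for sgPpia#4.1, the latter without 4711-1.

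Of the 43, genes called between 4711-18 and 4711-1 numbered 9 to 13 under the other alternatives (13 with voom) and 7 to 14 leaving out each sgRNA (14 without sgBgal). Between 4716-11 and the 4711 lines they numbered 12 under each of these alternatives and 10 to 13 leaving out each sgRNA. Of 21 called genes 16 stayed called in all 10 alternatives, and 0 of 210 values changed sign. Besides Eda2r, Igsf9b and Sec14l5 lost the call with rescaling (0.95 to 1.43 and 0.89 to 1.40 over the alternatives) and without sgPpia#4.1, Ssc5d without sgBgal (0.88) and Svop without sgPpia#4.1 (0.84).

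For the interactions between lines, the counts of 5 and 13 became 1 and 4 with a pseudocount of 0.1 and 0 and 1 with voom. With the sgRNA as block they became 8 and 12, and leaving out each sgRNA gave 0 to 2 and 2 to 5. The cause was not tested. The rule took 28 genes with a lowest Restored TPM of at least 2, 32 with a highest Control TPM below 1, 29 with a ratio of at least 4, 38 after rescaling, and 56 to 87 leaving out each line (87 without 4711-1, 69 without 4711-18). Fewer samples make the rule easier to meet. Control levels of the 43 genes rest on few reads, at most 7 to 420 in a library, so ratios of states are less certain than Restored levels.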
